A study of Saccharomyces cerevisiae with 7 samples.

Results

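The small subunit processome is the large assembly of proteins and U3 small nucleolar RNA that forms on the ribosomal RNA precursor in the nucleolus, where the RNA of the small ribosomal subunit is folded, modified and cut. Later factors carry the particle to the cytoplasm as a pre-40S subunit and finish it there. In growing budding yeast the genes for these factors are transcribed as a coordinated group, known as the ribosome biogenesis regulon, that is turned down in many kinds of stress. The genes described here are 51 listed small subunit processome and 40S assembly genes, chosen by name. Of these, 49 matched a gene name in the deposited table of 5732 genes, and those 49 are the members. DIM1, an rRNA dimethyltransferase gene, matched no row and was not analysed here. DBP4, a helicase gene, matched no name either, but RefSeq gives it as a synonym of HCA4, whose row is described apart from the members.

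Nascent RNA, the RNA still attached to RNA polymerase II, was measured in Saccharomyces cerevisiae strain DPY1283, labelled Hsf1-AA, Rpb3-FLAG. Every group carries both alleles. Hsf1-AA is the heat shock factor Hsf1 with an anchor-away tag, through which rapamycin tethers the protein outside the nucleus, and Rpb3-FLAG is a tagged polymerase subunit. The 4 groups were cells at 30 °C, cells at 30 °C with 1 µM rapamycin, cells at 39 °C (heat shock) and cells at 39 °C with 1 µM rapamycin, with 1 sample per group in the labels. The sources used here state neither how long heat and rapamycin lasted nor whether the strain resists rapamycin itself. Cells without the Hsf1 tag were not measured in these 4 groups, so loss of nuclear Hsf1 and other actions of rapamycin cannot be told apart. The series also lists 3 Hsf1 binding samples, not used here.

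The unit is the normalized read count per gene, averaged by the authors, called normalized reads below and given in the order 30 °C, 30 °C with rapamycin, 39 °C and 39 °C with rapamycin. The steps between low values read as the mean of 2 libraries per column, with estimated depths between 205000 and 795000 reads. The 2 libraries at 39 °C with rapamycin, at 300000 and 205000 reads, were the shallowest pair. No column carries an SD or n, so no difference has a replicate check or a test, and every interval and standard error covers counting error only. Log2 ratios were taken after adding 2.851 normalized reads to each value. A gene was called lower or higher at a ratio of at least 2-fold. The columns had near-equal medians, from 27.88 to 28.98 normalized reads, and how they were scaled is not stated. Ratios and shares left are therefore relative to the typical gene, and a change shared by most genes may not show. For the same reason a small median ratio of all kept genes is no separate result. In a bulk culture, fewer transcribing cells and less nascent RNA per cell cannot be told apart.

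At 30 °C these genes had high read counts per gene, a rank not corrected for gene length. The members ranged from 22.1 normalized reads for UTP11 to 401 for NSR1, with a median of 70.6, which lay above 80.7% of all genes in that column. With rapamycin at 30 °C the median was 62.7 and at 39 °C it was 4.54, above only 5.57% of genes. At 39 °C with rapamycin the median was 13.1, above 22.2% of genes. Together the members made up 1.035%, 0.984%, 0.0894% and 0.183% of all normalized reads in the 4 groups.

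Per kb of annotated gene the level at 30 °C had a median of 38.3 normalized reads per kb and ranged from 16.2 for DHR2 to 322 for NSR1. After NSR1, which encodes a nucleolin-like RNA-binding protein, the densest genes were PNO1 at 112, EMG1 at 92.7, RRP7 at 73.9 and BUD21 at 65.8 normalized reads per kb. The other 44 members lay between 16.2 and 51.1 per kb. At 39 °C the median density was 3.12 per kb, and with rapamycin it was 7.04.

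**Figure D1:**
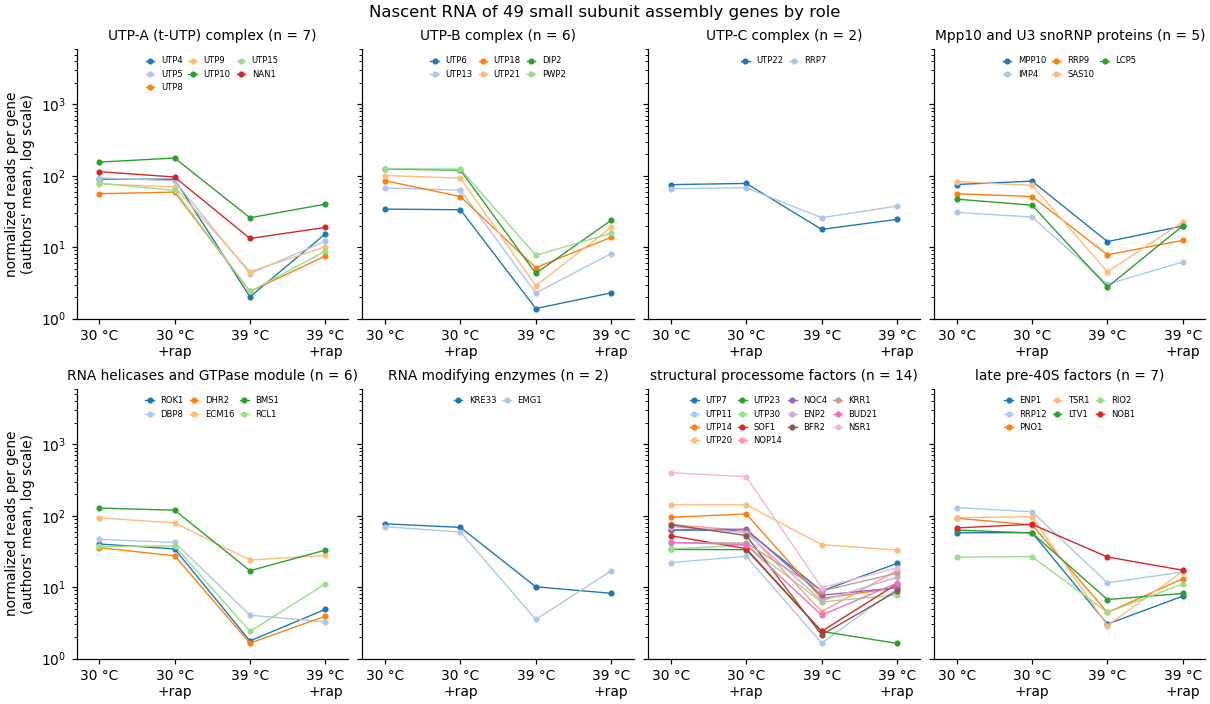
Authors' mean normalized reads per gene (log axis) in the 4 groups for the 49 measured members, 1 panel per role and 1 line per gene, with rapamycin marked as rap. Each line drops between 30 and 39 °C, and most lines end higher at 39 °C with rapamycin than at 39 °C without it.

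The first question is how heat shock changes transcription of these genes while Hsf1 can reach the nucleus. Every one of the 49 members was at least 2-fold lower at 39 °C than at 30 °C, beside 17.9% of the 4585 genes kept after removal of the lowest values. None was higher, beside 16.1%. The median log2 ratio was -3.10, an 8.59-fold difference, and the median of all kept genes was 0.01. By the same measure 43 members were at least 4-fold lower, beside 6.52% of kept genes, 25 at least 8-fold lower, beside 2.44%, and 5 at least 16-fold lower, beside 0.458%. All 49 members were among the genes kept.

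Summing reads over members lessens the counting error of single genes. The 49 members summed to 3912 normalized reads at 30 °C and 388 at 39 °C, so 9.91% was left, with a 95% counting interval from 9.20% to 10.7%. With rapamycin the sums were 3634 at 30 °C and 728 at 39 °C, so 20.03% was left, with an interval from 18.7% to 21.5%. Gene by gene, the share left at 39 °C without rapamycin ran from 2.24% to 39.2%, with a median of 7.10%. With rapamycin it ran from 4.87% to 55.3%, with a median of 20.1%.

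**Figure D2:**
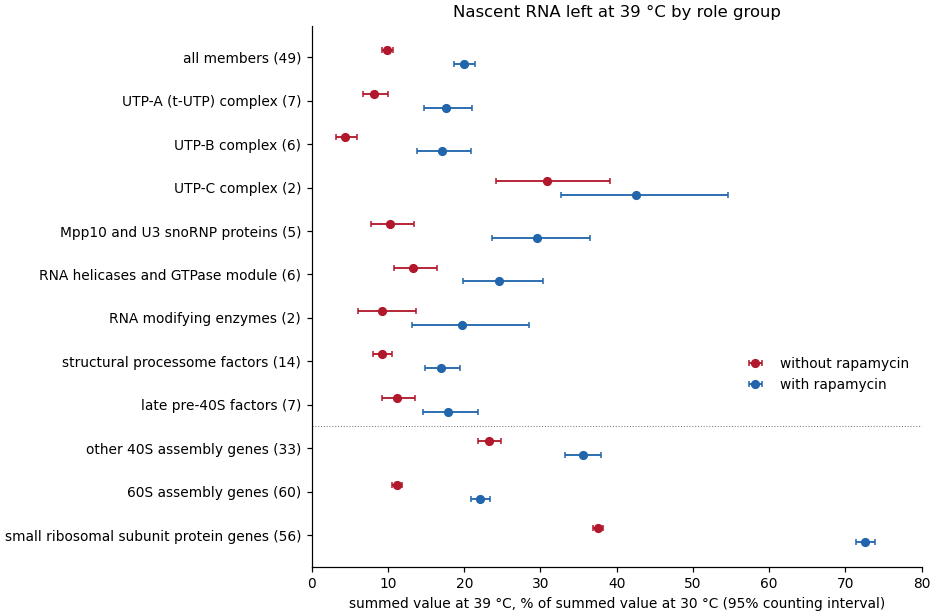
Summed normalized reads at 39 °C as a percent of the sum at 30 °C, without rapamycin and with it, for all 49 members, the 8 role groups and 3 comparison lists below the dotted line. Numbers in brackets are measured genes and bars are 95% counting intervals. For all members 9.91% was left without rapamycin and 20.03% with it.

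The UTP-A complex, also called t-UTP, is the first part of the processome to bind the 5′ end of the rRNA precursor. Its 7 genes summed to 666, 641, 54.8 and 113 normalized reads, and 8.23% was left at 39 °C (interval 6.71% to 9.99%). UTP4 (YDR324C, chromosome IV, 1114433 to 1116763, S288C assembly R64) had 90.1, 89.6, 2.02 and 15.4 normalized reads, a heat log2 ratio of -4.25. The raw fold was 44.6, with a counting interval from 17.2 to 165, since the value at 39 °C stood on about 4 reads. UTP10 (YJL109C, X, 212000 to 217309), the longest gene of this group, had 156, 178, 25.9 and 40.1, the least reduced of the 7 at -2.46. UTP5, UTP8, UTP9, UTP15 and NAN1 lay between these at -3.76, -3.49, -3.43, -3.96 and -2.86. UTP5 had 93.8, 85.04, 4.28 and 12.1 normalized reads, and UTP8 had 56.2, 59.2, 2.40 and 7.54. UTP9 had 77.0, 69.95, 4.56 and 10.1, and UTP15 had 78.8, 62.7, 2.40 and 8.81. In each of the 7 genes the lowest value was that at 39 °C without rapamycin, and both 39 °C values lay below both 30 °C values.

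The UTP-B complex, which binds next and chaperones the U3 RNA, had the lowest share left of the 8 role groups in heat without rapamycin. With rapamycin 17.1% was left, beside 16.99% for the structural genes. NSR1 weighs heavily in that structural sum, with 353 of 1116 normalized reads at 30 °C with rapamycin. By median log2 ratio in heat with rapamycin, UTP-B stood at -2.39 and the structural genes at -1.92. The 6 UTP-B genes summed to 539, 485, 23.7 and 82.7 normalized reads, and 4.41% was left at 39 °C (interval 3.22% to 5.89%). UTP21 (YLR409C, XII, 934414 to 937233) had 101, 92.96, 2.89 and 18.9 normalized reads, a heat ratio of -4.18. DIP2 (YLR129W, XII, 399657 to 402488) had 125, 120.0, 4.31 and 23.8, a heat ratio of -4.15. The raw heat folds of these genes had counting intervals that began at 15.6 and 14.8. UTP6 had 34.2, 33.5, 1.39 and 2.30 normalized reads and stood on about 3 reads in each 39 °C column. Its heat ratio of -3.13 was the highest of the group only because of the value added to each count. By raw values 4.05% of UTP6 was left at 39 °C without rapamycin, beside 6.14% of PWP2 and 6.04% of UTP18. PWP2 had 126, 124, 7.71 and 15.7, a heat ratio of -3.61. UTP13 had 67.7, 62.9, 2.28 and 8.15, and UTP18 had 85.65, 51.2, 5.17 and 13.75, with heat ratios of -3.78 and -3.46. UTP18 was the member of this group whose value also differed between the 30 °C columns by more than counting error.

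The UTP-C complex joins ribosome assembly to casein kinase 2, and its members here were the least reduced group. UTP22 and RRP7 summed to 141, 146, 43.7 and 62.2 normalized reads, so 30.9% was left at 39 °C (interval 24.2% to 39.1%). RRP7 (YCL031C, III, 64675 to 65568) had 66.1, 68.1, 25.9 and 37.7, a heat ratio of -1.26, the highest of all members. UTP22 had 75.3, 78.4, 17.8 and 24.5, a ratio of -1.92. The intervals of UTP-B and UTP-C did not overlap, but this compares counting error only and was not tested between replicates.

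Among the proteins that work with the U3 particle, MPP10 and IMP4 belong to the Mpp10 complex, RRP9 encodes a U3-specific protein, and SAS10 and LCP5 encode related processome proteins. These 5 genes summed to 293, 274, 30.2 and 80.99 normalized reads, with 10.3% left at 39 °C. SAS10 (YDL153C, IV, 181186 to 183018) had 83.3, 73.5, 4.54 and 22.6, the lowest heat ratio of this group at -3.54. LCP5 (YER127W, V, 414481 to 415554) had 47.1, 38.8, 2.78 and 19.9, a heat ratio of -3.15 without rapamycin and -0.87 with it. MPP10, the least reduced here, had 75.6, 84.3, 11.99 and 19.8 and a ratio of -2.40. IMP4 had 30.7, 26.5, 3.04 and 6.22 and RRP9 had 56.1, 51.3, 7.83 and 12.5, with ratios of -2.51 and -2.46.

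Energy-using factors remodel the particle. ROK1 and DBP8 encode DEAD-box helicases, DHR2 and ECM16 encode DEAH-box helicases, and BMS1 encodes a GTPase whose partner is RCL1. These 6 genes had 13.3% left at 39 °C (interval 10.75% to 16.4%). ROK1 was lowest, with 40.2, 34.4, 1.77 and 4.89 normalized reads and a heat ratio of -3.22. ECM16 (YMR128W, XIII, 523696 to 527499), whose helicase releases U3 from the rRNA, was highest, with 93.3, 79.5, 23.98 and 27.8 and a ratio of -1.84. DBP8 had 46.7, 42.4, 4.05 and 3.26 and DHR2 had 35.8, 27.4, 1.65 and 3.92, with heat ratios of -2.84 and -3.10. BMS1 had 128, 120, 17.0 and 33.0 and its partner RCL1 had 37.1, 37.8, 2.40 and 11.1, with ratios of -2.72 and -2.93. DBP8 was the gene of this group with no higher value under rapamycin at 39 °C. HCA4, the row that RefSeq pairs with DBP4, had 71.8, 67.3, 4.16 and 7.54 normalized reads and a heat ratio of -3.41.

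The modifying enzyme genes were KRE33, an RNA acetyltransferase gene, and EMG1, an rRNA methyltransferase gene, with heat ratios of -2.62 and -3.52. KRE33 had 77.1, 68.7, 10.1 and 8.20 normalized reads, so it did not stand higher at 39 °C with rapamycin. EMG1 had 70.4, 59.1, 3.53 and 16.9 normalized reads, 4.80-fold higher with rapamycin at 39 °C (counting interval 1.959 to 13.4). The pair summed to 9.25% left.

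The 14 structural processome genes had 9.18% left at 39 °C (interval 7.97% to 10.5%). One gene, NSR1, made up 401 of their 1212.5 normalized reads at 30 °C, and the median heat ratio of the 14 was -2.76. NSR1 (YGR159C, VII, 806412 to 807656) had 401, 353, 9.85 and 18.6 normalized reads. With the value added to each count, its heat ratio was the lowest of all members, at -4.99 without rapamycin and -4.05 with it. By raw values UTP4 had less left without rapamycin, 2.24% beside 2.46% for NSR1. With rapamycin UTP23 had less left, 4.87% beside 5.27% for NSR1. At 39 °C UTP4 stood on about 4 reads without rapamycin and UTP23 on about 2 with it. The dubious open reading frame YGR160W overlaps NSR1 and had 332, 242, 2.40 and 8.15, and without a stated strand setting their reads cannot be told apart. UTP20 (YBL004W, II, 227636 to 235117), the longest member at 7482 bases, was the least reduced of this group, with 142, 143, 39.4 and 33.1 and a heat ratio of -1.78. BFR2, SOF1, NOP14 and UTP14, the last of which encodes an activator of the ECM16 helicase, had heat ratios of -3.96, -3.40, -3.41 and -3.32. BFR2 had 74.9, 52.9, 2.14 and 8.81 normalized reads, SOF1 had 52.5, 34.6, 2.40 and 11.1, and NOP14 had 75.6, 61.7, 4.54 and 17.0. These 3 genes were low at 39 °C and in part higher again with rapamycin. UTP11 had 22.1, 27.1, 1.65 and 9.52, UTP23, a gene for a PIN-domain protein, had 33.8, 33.5, 2.40 and 1.63, and BUD21 had 42.4, 39.3, 4.05 and 11.4. Of these, UTP23 had its lowest value with rapamycin. The others, UTP7, UTP11, UTP23, UTP30, NOC4, ENP2, KRR1 and BUD21, lay between -2.99 for ENP2 and -1.93 for KRR1.

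The late pre-40S factors accompany the particle out of the nucleus. Their 7 genes summed to 531, 503, 59.4 and 90.2 normalized reads, with 11.2% left at 39 °C (interval 9.19% to 13.5%). TSR1 (YDL060W, IV, 341619 to 343985), a GTPase-like factor gene, had 94.0, 97.0, 2.89 and 16.7, a heat ratio of -4.08. PNO1, whose product is the partner of the Nob1 nuclease, had 92.4, 74.4, 4.42 and 13.1, a ratio of -3.71. NOB1 (YOR056C, XV, 430247 to 431626), which encodes the nuclease that makes the mature end of 18S rRNA, had 67.6, 75.9, 26.5 and 17.3, a ratio of -1.26. With rapamycin the NOB1 heat ratio was -1.97, lower than without it. ENP1, RRP12, LTV1 and the kinase gene RIO2 had heat ratios of -3.36, -3.21, -2.79 and -2.01. ENP1 had 57.8, 58.1, 3.04 and 7.49 normalized reads and RIO2 had 26.4, 26.7, 4.42 and 11.1. All late factors but NOB1 had their lowest value at 39 °C without rapamycin.

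**Figure D3:**
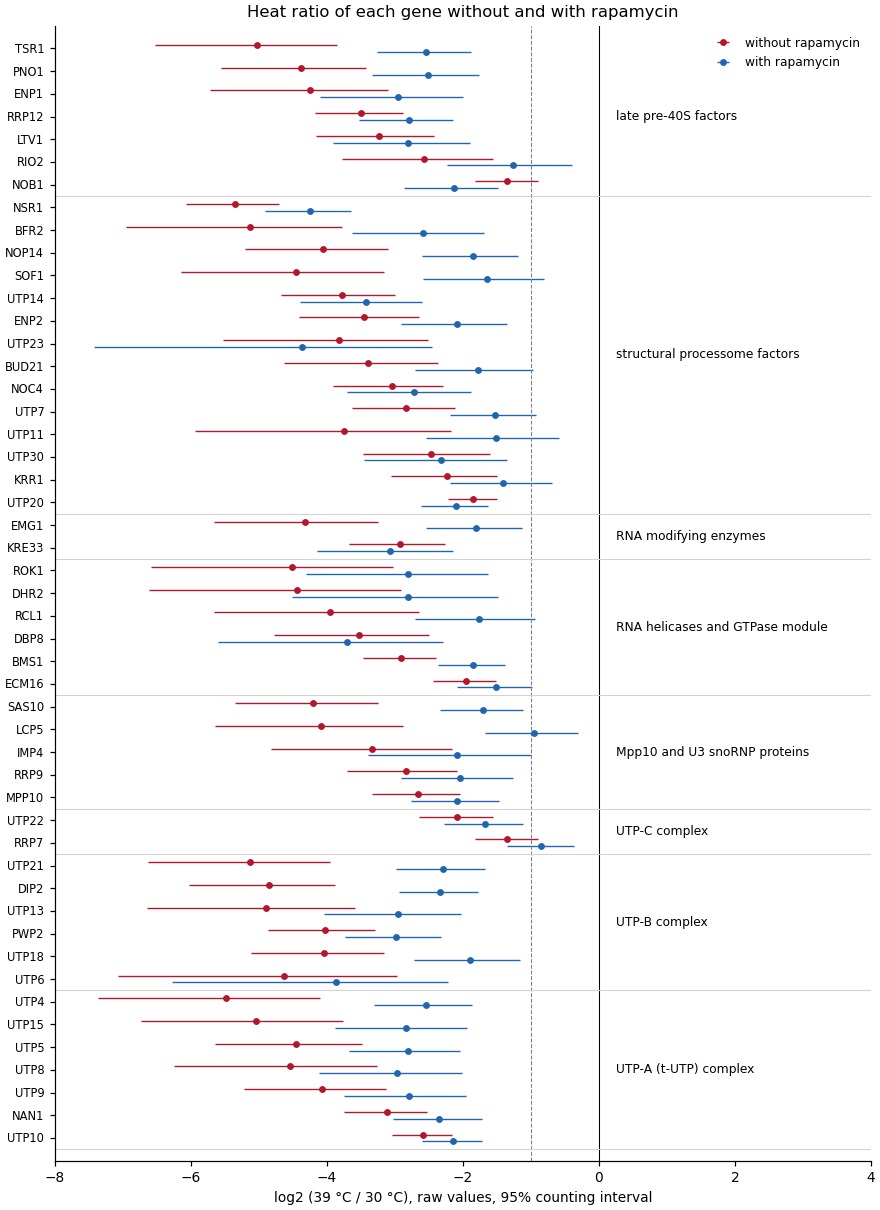
Log2 of the raw 39 °C over 30 °C ratio, with no value added, for each of the 49 members without rapamycin and with it, grouped by role. Bars are 95% counting intervals, the solid line is no difference and the dashed line is 2-fold lower. Without rapamycin every interval lies below 0, and those of RRP7 and NOB1 reach past the 2-fold line.

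How far the low values at 39 °C can carry these ratios was read from the counts behind them. At 39 °C without rapamycin 27 of 49 members stood on fewer than 10 estimated reads over both libraries, with UTP6, DHR2, UTP11 and ROK1 on fewer than 4. At 39 °C with rapamycin 9 members did, with UTP23 and UTP6 on fewer than 3. Even so, the counting interval of the raw heat ratio lay below 1 for all 49 members, beside 32.8% of kept genes, and below 0.5 for 47, beside 12.7%. The exceptions at 0.5 were RRP7 and NOB1. The standard error of the heat log2 ratio, taken with the value added to each count, ran from 0.17 to 0.34. It understates the counting error of the raw ratio for genes on few reads. UTP4, on about 4 reads, had a standard error of 0.31, while its raw fold had a counting interval from 17.2 to 165.

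For values under 6 normalized reads, 1 pair of whole read numbers could be assigned to the 2 libraries of a column. That held for all 28 members under that value at 39 °C without rapamycin. UTP4 came out as 2 and 2 reads, UTP21 as 6 and 1, LCP5 as 4 and 2, and TSR1 as 6 and 1, the deeper library first. Such pairs can total more than the estimates above, as for ROK1 at 3 and 1, UTP5 at 8 and 2, and SAS10 and NOP14 at 7 and 3. The same held for UTP6 at 39 °C with rapamycin, at 2 and 1. The 28 members summed to 109 reads in the deeper library and 73 in the shallower one, or 82.0 and 92.7 normalized reads. In both inferred libraries each of the 28 genes lay below 50% of its mean at 30 °C. That outcome was fixed by picking low values, so it is no check between libraries. The highest of the 28 was 5.17 normalized reads, and no member was under 22.1 at 30 °C. The pairs are inferred from the averages and are not replicate values given by the authors.

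The second question is how these genes differ without heat when rapamycin is added to take Hsf1 out of the nucleus. With rapamycin at 30 °C no member was 2-fold lower or higher, beside 0.371% and 0.0436% of kept genes. The median log2 ratio was -0.10, and 34 of 49 members were below 0, beside 49.6% of kept genes. The summed value was 92.9% of that without rapamycin (counting interval 90.3% to 95.6%). The members at the low end were UTP18, which went from 85.6 to 51.2 normalized reads at a log2 ratio of -0.71, SOF1 at -0.56, BFR2 at -0.48, DHR2 at -0.35 and UTP15 at -0.32. At the high end were UTP11 at 0.26, UTP10 at 0.19, UTP30 and NOB1 at 0.16 and UTP14 and MPP10 at 0.15. The counting interval of the raw ratio lay below 1 for 6 members, UTP15, UTP18, SOF1, BFR2, NSR1 and PNO1, beside 6.50% of kept genes, and above 1 for none, beside 5.17%.

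The third question is how these genes differ with rapamycin during heat shock, where loss of nuclear Hsf1 and other actions of rapamycin cannot be told apart. With rapamycin at 39 °C, 19 of 49 members were at least 2-fold higher than at 39 °C without it, beside 5.37% of kept genes. None was 2-fold lower, beside 2.88%. The median log2 ratio was 0.81, a 1.76-fold difference, against 0.02 for all kept genes. By raw values the median of the members was 1.15. This comparison shares the column at 39 °C without rapamycin with the first heat comparison, so a low value there enters both. The summed value was 1.88-fold higher, with a counting interval from 1.70 to 2.07. The count of 19 depends on how low values are treated. It was 2 with 0.5 of the median added, 26 with 0.01 of the median added and 28 by raw values. The summed value uses no added value.

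LCP5 led this comparison, at 2.78 normalized reads without rapamycin and 19.9 with it, a log2 ratio of 2.02. It was followed by UTP21 at 1.93, UTP4 and DIP2 at 1.90 and SAS10 at 1.78. The raw fold of LCP5 was 7.18 with a counting interval from 2.78 to 22.6, and that of DIP2 was 5.54 with an interval from 2.52 to 13.6. The interval lay above 2-fold for 6 members, UTP4, UTP21, DIP2, SAS10, LCP5 and TSR1, beside 1.53% of kept genes. It lay above 1 for 21 members, beside 17.7%. Those 21 include all 19 that were 2-fold higher, together with UTP10 and BMS1. For no member did the interval lie below 1, beside 14.9%. The 28 other members had intervals that hold 1, which at this depth shows neither a difference nor its absence.

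The other members that were 2-fold higher were TSR1 at 1.77, EMG1 at 1.63, UTP11 at 1.46, NOP14 at 1.43, SOF1 and RCL1 at 1.41, BFR2 at 1.22, UTP15 at 1.15, PNO1 at 1.13, UTP13 at 1.10, UTP5 at 1.07, UTP7 at 1.06, and UTP18 and BUD21 at 1.05. Every role except UTP-C was among them, with 3 of 7 UTP-A genes, 4 of 6 UTP-B genes and 6 of 14 structural genes.

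Ratios were below 0 for 5 of 49 members, beside 48.1% of kept genes. At the low end of the rapamycin ratio at 39 °C were NOB1 at -0.54, UTP20, KRE33 and UTP23 at -0.23 and DBP8 at -0.17. UTP20 had 39.4 normalized reads without rapamycin and 33.1 with it, a raw ratio of 0.841 with an interval from 0.561 to 1.24. NOB1 had a raw ratio of 0.652 with an interval from 0.374 to 1.10. UTP23 stood on about 2 reads with rapamycin, and its interval ran from 0.0640 to 4.27. By role, the summed value was 3.48-fold higher with rapamycin for UTP-B (interval 2.44 to 5.03), 2.68-fold for the Mpp10 and U3 proteins (1.93 to 3.77) and 2.06-fold for UTP-A (1.59 to 2.68). It was 1.84-fold for the modifying enzymes, 1.70-fold for the structural genes, 1.65-fold for the helicases and GTPase module, 1.52-fold for the late factors and 1.42-fold for UTP-C, whose interval began at 1.03.

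**Figure D4:**
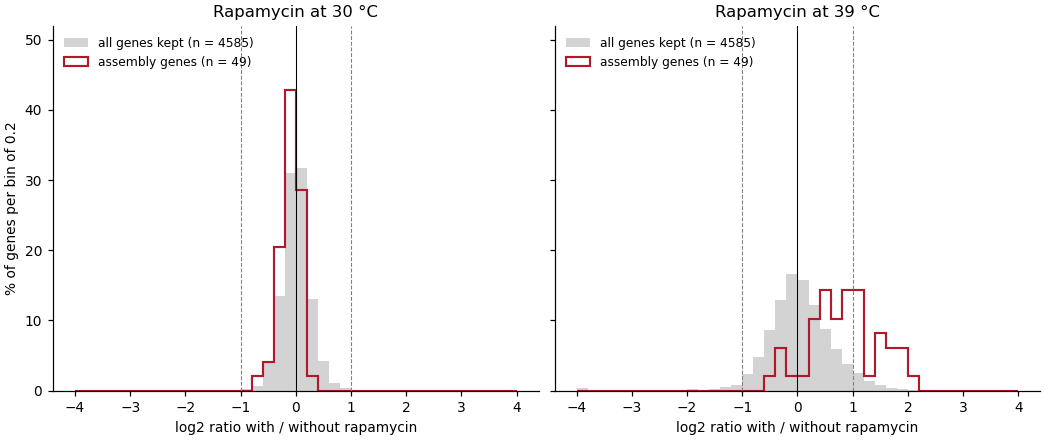
Distribution of the log2 ratio with over without rapamycin at 30 °C (left) and 39 °C (right), in bins of 0.2 as a percent of genes, for 4585 kept genes (grey) and the 49 members (red outline). Dashed lines mark 2-fold, and ratios past 4 in either direction are drawn in the end bins. The members centre at -0.10 at 30 °C and at 0.81 at 39 °C.

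The last comparison is heat shock in cells with rapamycin. With rapamycin in both groups, 47 of 49 members were at least 2-fold lower at 39 °C than at 30 °C, beside 12.8% of kept genes, and none was higher, beside 12.3%. The median log2 ratio was -2.14, a 4.39-fold difference, and by raw values it was -2.32. RRP7 at -0.81 and LCP5 at -0.87 were the members short of 2-fold. With the value added to each count, NSR1 at -4.05, UTP14 at -3.10 and UTP23 at -3.02 were lowest. By raw values UTP23 at -4.36 lay below NSR1 at -4.245, and UTP6 at -3.87 and DBP8 at -3.70 lay below UTP14 at -3.43. The counting interval of the raw ratio lay below 1 for all 49 members, beside 27.2% of kept genes.

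The heat ratio was nearer to 0 with rapamycin than without it in 44 of 49 members, where 51.1% of kept genes had the higher heat ratio with rapamycin. The members that went the other way were NOB1, UTP20, UTP23, KRE33 and DBP8. Across the 49 members the heat ratios without and with rapamycin, which share no column, had a Pearson r of 0.55 and a Spearman rho of 0.48. Across all 4585 kept genes Pearson r was 0.87. Genes are not independent replicates, and within each temperature the 2 columns differ in depth. The rapamycin ratio at 39 °C exceeded that at 30 °C by at least 2-fold in 20 members, beside 6.91% of kept genes. The median difference was 0.94 on the log2 scale. By construction it equals the heat ratio with rapamycin minus that without it, so it is not a further result beside the 44. The largest differences were those of LCP5 at 2.28, UTP21 at 2.04 and SOF1 at 1.97.

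The same measures in related lists show where the members stand. Of 33 measured other 40S assembly genes, 25 were at least 2-fold lower in heat without rapamycin and none higher, with a median log2 ratio of -2.35. NOP1, the box C/D methyltransferase gene, NOP58 and UTP25 were lowest there at -4.44, -4.21 and -4.14. The casein kinase genes HRR25 and CKB1, which also work outside ribosome assembly, were highest at 0.20 and 0.13, followed by PXR1 at -0.19. Of 60 measured 60S assembly genes 58 were lower, with a median of -3.25 and 11.1% of the summed value left (interval 10.5% to 11.8%). NOG1, NOP4 and MAK16 were lowest at -4.76, -4.70 and -4.53. Of 56 small ribosomal subunit protein genes 46 were lower, with a median of -1.52 and 37.5% left. Reads of the paired copies of those genes could be split in an unknown way.

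With rapamycin at 39 °C, 9 of the 33 other 40S genes, 20 of the 60 60S genes and 27 of the 56 ribosomal protein genes were at least 2-fold higher, and none in any of these lists was 2-fold lower. Their medians were 0.56, 0.79 and 0.97, beside 0.81 for the members. Of the summed value, 35.5%, 22.1% and 72.6% was left in heat with rapamycin in the same order, beside 20.03% for the members. No test of the difference between lists was possible with 1 sample per group.

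The members lay on 13 chromosomes, with at most 7 on 1 of them, chromosome IV. Across members the Spearman rho of gene length with the raw heat ratio without rapamycin was 0.02. The 16 shortest members, of 645 to 1380 bases, had 10.2% of their summed value left at 39 °C without rapamycin, the 17 in the middle 7.43% and the 16 longest, of 2331 to 7482 bases, 11.4%. With rapamycin these shares were 20.03%, 19.9% and 20.09%. Across members the Spearman rho of length with the raw rapamycin ratio at 39 °C was -0.12 (n = 49), while across 4418 kept genes with a RefSeq length it was -0.37. Longer genes collect more reads at the same density, so length and counting error move together.

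For 21 members the nearest annotated gene upstream is read in the opposite direction, so that both start from 1 intergenic stretch. Of these 21 divergent neighbours, 7 were at least 2-fold lower in heat without rapamycin and 1 was higher, where 17.9% and 16.1% of all kept genes were. Of the nearest genes on the same strand, 9 of 24 downstream and 8 of 28 upstream were lower, and 4 and 5 were higher. Of 23 measured convergent neighbours, nearest downstream and read in the opposite direction, 3 were lower and 3 higher. UTP15, with a heat ratio of -3.96, faces AIP1, an actin-interacting protein gene that went from 39.3 to 106 normalized reads, a ratio of 1.36, across 535 bases. NOP14, at -3.41, faces the proteasome gene RPN5 across 337 bases, which was at 97.4 and 169, a ratio of 0.77. Among the 7 low neighbours were the ribosomal protein genes RPS18A, facing UTP6 at -1.24, and RPS29B, facing TSR1 at -1.63, and RPC25, an RNA polymerase III subunit gene facing LTV1 at -1.47. Lower still were NSA2, a 60S assembly gene facing LCP5 across 301 bases at -3.50, and RPC53, another such subunit gene facing SAS10 across 324 bases at -2.94. The rest of the 7 were SYF2, facing UTP8 at -1.57, and SAS2, facing ECM16 at -1.005. With rapamycin at 39 °C, 5 of the 21 divergent neighbours were at least 2-fold higher, beside 5.37% of kept genes. These were NSA2 at 1.49, RPS18A at 1.39, RPC53 at 1.35, RPS29B at 1.18 and ATP5, an ATP synthase gene facing BFR2, at 1.14. On the same strand 3 of 24 downstream and 2 of 28 upstream neighbours were higher, 2 upstream ones were lower, and 0 of 23 convergent ones were higher.

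NOB1 lies between neighbours that differ. SGT1, divergent from it across 559 bases, was at 22.1 and 21.7 normalized reads at 30 and 39 °C without rapamycin. Downstream on the same strand, VHS3 went from 19.0 to 108, a heat ratio of 2.34, and the locus YOR055W, next to NOB1 in systematic order and without a RefSeq row, went from 4.45 to 28.3. Whether reads of these loci enter the NOB1 value was not tested. Loci without a RefSeq row also lie next to PNO1, RRP9 and UTP14, and whether their reads enter those values was not tested either. YOR146W, next to PNO1, had 55.6, 37.7, 1.65 and 6.57 normalized reads, a heat ratio of -3.70. YPR136C, next to RRP9, had a heat ratio of -1.64 and YML094C-A, next to UTP14, of -0.74.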

How the data were processed

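Nascent RNA was measured in 4 samples, 1 per condition. For 5732 genes the authors deposited an average normalized count, a signal value per the file headers. The submitters' processing notes name HTSeq and sacCer3. Versions, aligner, annotation, strand setting and scaling: not given in the sources used here. Columns were matched to groups by header abbreviations, and no value column was left unmapped (0).

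Values under 6 were fitted, within 0.0055, as whole reads of 2 libraries with 1 step each, with the lowest value taken as 1 read of each library. All such values matched (100%), against 6.98% to 33.0% of evenly spaced values. Depths estimated from the steps were 795000 and 372000 reads at 30 °C, 498000 and 374000 at 30 °C with rapamycin, 576000 and 341000 at 39 °C and 300000 and 205000 at 39 °C with rapamycin. A value was treated as Poisson with a variance scaled by the fitted steps. Ratio intervals are 95% Clopper-Pearson intervals of the conditional share. They cover only the counting of reads, which without molecular identifiers can be copies of 1 molecule. No value was 0, so a gene with no reads in a library would not be seen.

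For log2 ratios 2.851 was added, 0.1 times the median of all values. Over all genes, those with a mean of at least 14.442 (the 20th percentile) were kept, 4585 in all. The call was 2-fold. Named genes were, per role, the lowest and highest heat ratio, the 5 lowest and 5 highest of each comparison, and members under 10 reads at 39 °C without rapamycin. Outside the members at most 3 per end of a list were named, and neighbouring genes were chosen after their values were seen. Members and lists were chosen with earlier results of these data known. Of the 39 other 40S and 65 60S names listed, 6 and 5 matched no row, and why was not checked. Coordinates and lengths are those of RefSeq R64. Settings tried were other added values, filters, scalings and call sizes. A planned search of promoter motifs was not run, and no sequence was used here. Python 3.11.15, numpy, pandas and scipy were used, and the steps and calls were tested on simulated data.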

Additional observations from a re-analysis of the deposited data

Results flagged for a closer look

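The summed value of the 49 measured members moved in opposite directions with rapamycin at the 2 temperatures. Its log2 ratio was -0.11 at 30 °C and 0.91 at 39 °C, each from 1 sample per group, and the difference was not tested. The estimated depth of the 39 °C columns also differed, with 576000 and 341000 reads without rapamycin and 300000 and 205000 with it, and the part of depth in this result was not tested.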

How the results depend on the processing

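No paired analysis was possible because each condition has 1 averaged column. At a 2-fold call every member kept was lower in heat without rapamycin in the settings tried, and no median over the members changed sign. With 0.5 of the median value added, the median was -2.002 in heat without rapamycin and -1.53 with it, and 2 members were higher with rapamycin at 39 °C. Over all kept genes that setting called 0.240% lower and 0% higher with rapamycin at 30 °C, 1.79% lower and 1.98% higher with rapamycin at 39 °C, and 7.87% lower in heat with rapamycin. With 0.01 of the median added, 0.218% were higher with rapamycin at 30 °C, with no filter 0.0872%, and with a filter at the 40th percentile, which kept 40 members, 0%.

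A 1.5-fold call gave 1 member lower with rapamycin at 30 °C and 32 higher at 39 °C. Over all genes, in the order lower and higher, it called 28.3% and 27.4% in heat, 1.396% and 1.59% with rapamycin at 30 °C, 10.7% and 15.6% with rapamycin at 39 °C, and 23.9% and 22.9% in heat with rapamycin. A 4-fold call gave 1 member higher with rapamycin at 39 °C and 27 lower in heat with rapamycin. Over all genes it called 6.52% and 5.17%, 0.0872% and 0%, 0.981% and 0.0654%, and 3.36% and 3.47% in the same order.

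Rescaling columns to 1 total moved the median of all kept genes to -0.17 in heat and 0.14 with rapamycin at 39 °C. Of 196 single-gene ratios, 22 missed the 2-fold call with 0.5 of the median added, 7 newly passed it with 0.01, and 2 with equal totals. Chosen after seeing the data, counting HCA4 as a member left 9.83% of the sum in heat, and leaving out NSR1 left 10.8%, or 21.6% with rapamycin. Counting error was largest at 39 °C, where the members' values were low, at 33.4% for the median member without rapamycin and 24.9% with it, beside 7.27% and 8.31% at 30 °C.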
